A study of Mus musculus with 9 samples.

Results

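The day 7 callus of control mice was described from 3 libraries, those of mice given phosphate-buffered saline (PBS), out of 9 libraries in the series. They were chosen by their sample labels alone, and no measured value entered the choice. The other 6 libraries came from mice given the STING inhibitor H-151 or the STING activator SR-717 and are not compared here. Every mouse was a male C57BL/6J animal, aged 7 weeks by the labels, with a fracture at the middle of the left femur held by an intramedullary needle. The PBS group received 200 μl of PBS by intraperitoneal injection each day for 1 week, beginning the day after surgery. The controls thus carried the fracture, the needle and the injections, and no unbroken bone or uninjected mouse stands beside them here. The labels number the PBS libraries as replicate biosamples 1 to 3 and do not say whether a biosample was 1 animal or a pool, so the spread given below is that between these samples. The labelled tissue is bone, while the extraction text in the labels speaks of cell lines. The labels are held against marker genes below, with no cell line to compare.

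A fracture callus forms in stages that overlap. Inflammatory cells arrive first, periosteal and other progenitors then lay down fibrous tissue and cartilage, and chondrocytes enlarge and mineralize their matrix before osteoblasts and osteoclasts replace it with bone. Blood vessels grow in with the new bone, and torn muscle and opened marrow lie directly against the callus. Bulk RNA of a callus therefore mixes many cell types, and in such data fewer cells of a type and less RNA per cell cannot be told apart.

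Expression is given as TPM, a level scaled for gene length and for the library so that genes can be compared within a library. Unless said otherwise, 3 values in a row are those of PBS replicates 1, 2 and 3 in that order, genes named together have their values in the order named, and means are given ± SD (n = 3). The expected counts of these libraries summed to 16987398, 23272480 and 18271589, and the median gene at about 1 TPM had 25, 33 and 27 counts. Of 22054 genes, 13168 had a mean of 1 TPM or more. A set of 150 genes at 1000 TPM or more held 44.0% of all TPM, and the first 223 genes in order of abundance held as much TPM as all the others (212, 251 and 188 in the single libraries). A further 1192 genes lay between 100 and 1000 TPM, 7019 between 10 and 100 and 4807 between 1 and 10. At the lower end 4708 genes had no count in any of the 3 libraries.

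The libraries differed from each other well beyond counting error, and each stood apart in its own groups of genes. Between pairs of libraries the median absolute log2 ratio was 0.37 (replicates 1 and 2), 0.32 (1 and 3) and 0.37 (2 and 3), with the median gene 0.15 higher on the log2 scale in replicate 2 than in replicate 3. The common biological coefficient of variation, edgeR's estimate of the spread of a gene between libraries beyond counting error, was 0.335. Over all genes at a mean of 1 TPM or more, 23.5% lay 2-fold or more apart between the highest and the lowest library. Replicate 1 was 2-fold or more above both others for 3.13% of genes and below both for 1.42%. For replicate 2 these shares were 2.7% and 0.98%, and for replicate 3 they were 2.28% and 4.82%. These shares are the background against which the counts of list members below are read. The lists were chosen with earlier results of these data known, so those counts describe the libraries and test nothing. The median gene had an SD of 0.30 on the log2(TPM + 0.1) scale.

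Among the most abundant transcripts were those of the bone matrix and of the mitochondrial genome. The 30 genes of highest mean TPM comprised 9 mitochondrially encoded genes, 5 ribosomal protein genes, 3 collagens, 1 hemoglobin and 12 others. The highest nuclear transcript was Sparc (chr11:55394500-55423183, minus strand, on GRCm38 as all positions here), which encodes osteonectin, a collagen-binding matrix protein, at 9334, 9799.6 and 12763 TPM (10632 ± 1859.6). The chains of type I collagen followed, with Col1a1 (chr11:94936224-94953042, plus strand) at 8678, 12196 and 10931 TPM and Col1a2 at 7247, 10286 and 9389 TPM. Both chains were lowest in replicate 1 and highest in replicate 2, and Col1a2 stood at 84.6 ± 1.21% of Col1a1 within a library. Type III collagen, Col3a1, the fibrillar collagen of early repair tissue, had another order at 6485, 4973 and 3349.6 TPM, so that it equalled 74.7%, 40.8% and 30.6% of Col1a1.

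The remaining nuclear genes of the first 30 came from several tissues. Osteopontin, Spp1, a phosphoprotein of bone matrix that macrophages also make, was found at 4032, 2799.8 and 7130.4 TPM, highest in replicate 3. The osteoclast protease Ctsk had 3839.9, 4108 and 5119 TPM and the osteoclast phosphatase Acp5 had 3203, 3632 and 3782 TPM. Skeletal muscle was represented by Acta1, its actin (chr8:123891769-123894751, minus strand), at 4679, 9262 and 1701 TPM and by the fast myosin light chain Mylpf at 3981, 5995 and 1843 TPM. Lyz2, the lysozyme of macrophages and neutrophils, had 5180.1, 3831 and 2963 TPM. Hbb-bs, an adult beta globin (chr7:103826534-103828096, minus strand), had 521, 10664 and 1812 TPM. The muscle genes and Hbb-bs spread more than Sparc and the type I collagen genes, and Hbb-bs was among the first 30 through replicate 2, with a mean of 1166 TPM without that library.

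Some abundant genes were steady. The secreted glutathione peroxidase Gpx3 had 4654, 4748 and 4909 TPM, and the galectin Lgals1 had 3640.1, 3354 and 3935 TPM. The iron storage genes differed from each other. The ferritin light chain Ftl1 had 7378, 6545 and 5015 TPM, while the heavy chain Fth1 had 8416, 2983 and 2487 TPM and was highest in replicate 1. The translation factor Eef1a1 had 6079.7, 5936 and 7486 TPM, and the ribosomal protein genes Rpl41, Rps14, Rpl13a, Rplp1 and Rps24 had means of 5096, 4299, 4036, 3528 and 3449 TPM. All 82 ribosomal protein genes together held 11.3%, 12.0% and 14.8% of TPM.

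The 13 mitochondrially encoded genes, which encode subunits of the respiratory chain, held 14.8%, 7.48% and 15.3% of TPM. Their order was not the same in each library. The most abundant by mean, mt-Co1, had 32431, 20538 and 19862 TPM and mt-Co2 had 21322, 9449.5 and 33614 TPM. The short gene mt-Atp8 had 3124, 915 and 16527 TPM, 18.1 times as much in replicate 3 as in replicate 2. It overlaps mt-Atp6 (21739, 9163 and 16444 TPM), so reads of this stretch can be shared between them. For mt-Nd2 the values were 4086, 2014 and 12355 TPM. The other 4 of the first 30, mt-Nd1, mt-Co3, mt-Nd4 and mt-Cytb, ranged from 4771 to 18486 TPM and were lowest in replicate 2. Of the 30 genes, 20 were also among the first 30 when ranked by counts without regard to length, and 18 were among the first 30 of every library.

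**Figure D1:**
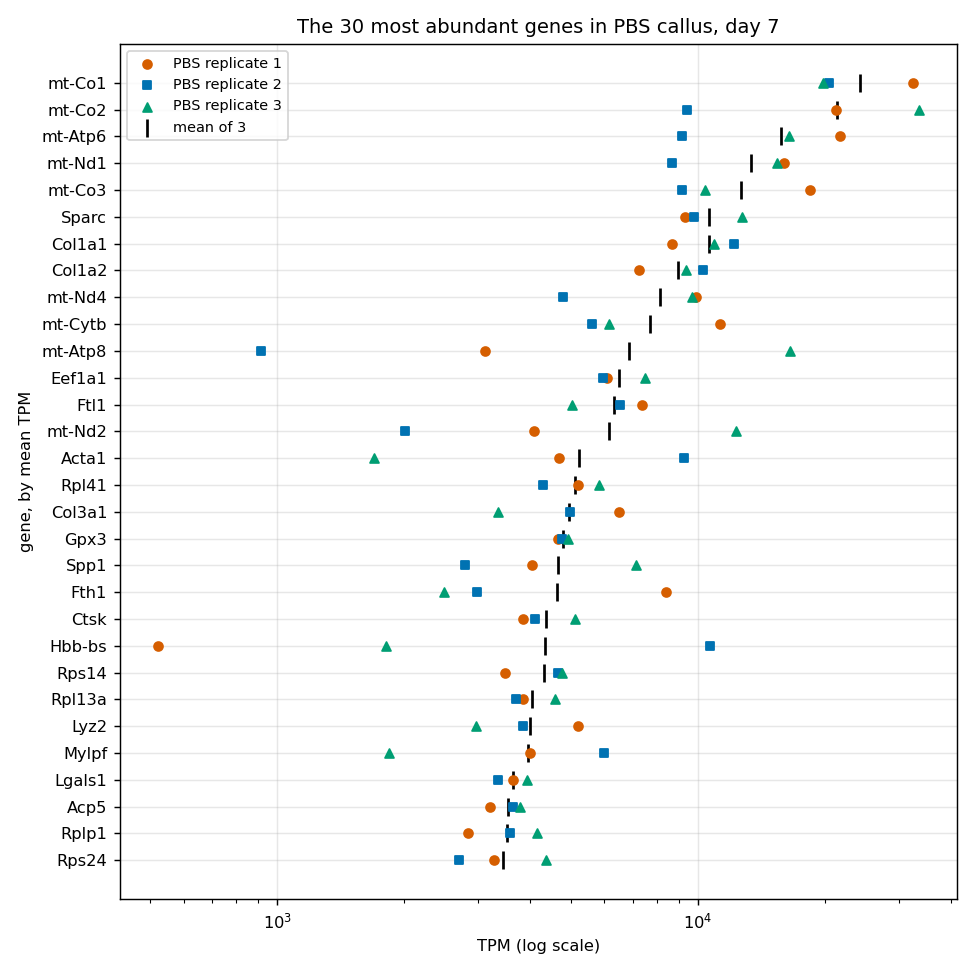
TPM (x axis, log scale) of the 30 genes of highest mean TPM (y axis, ordered by mean) in the 3 PBS libraries, 1 symbol for each library and a black tick for the mean. Gpx3 lies between 4654 and 4909 TPM, whereas Hbb-bs runs from 521 to 10664 TPM and mt-Atp8 from 915 to 16527 TPM.

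Gene lists for cartilage, bone, fibrous tissue, marrow, muscle, immune cells and vessels were then summed in each library. The bone matrix list had the highest mean sum at 40586 ± 7534 TPM (4.06% of all TPM). Mature muscle followed at 25253 ± 15256, the fibroblast list at 13630.5 ± 1376, the erythroid list at 11728 ± 15629.9 and the osteoclast list at 10301 ± 1140.3 TPM. Macrophage, neutrophil and cartilage matrix lists came next, with 8750.1 ± 2713, 6941 ± 4816 and 5548 ± 4271 TPM. Of 30 pairs of neighbours in the order of 31 lists, 27 overlapped in their ranges over the 3 libraries, so most steps of this order are not separated by the spread. Lists differ in length and in the genes chosen, and a sum is not a share of cells. Of the 31 lists, 16 had a highest library 2-fold or more above the lowest, and 10 stayed under 1.5-fold. Replicate 2 was the highest for 15 lists, and replicate 3 was the lowest for 18.

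**Figure D2:**
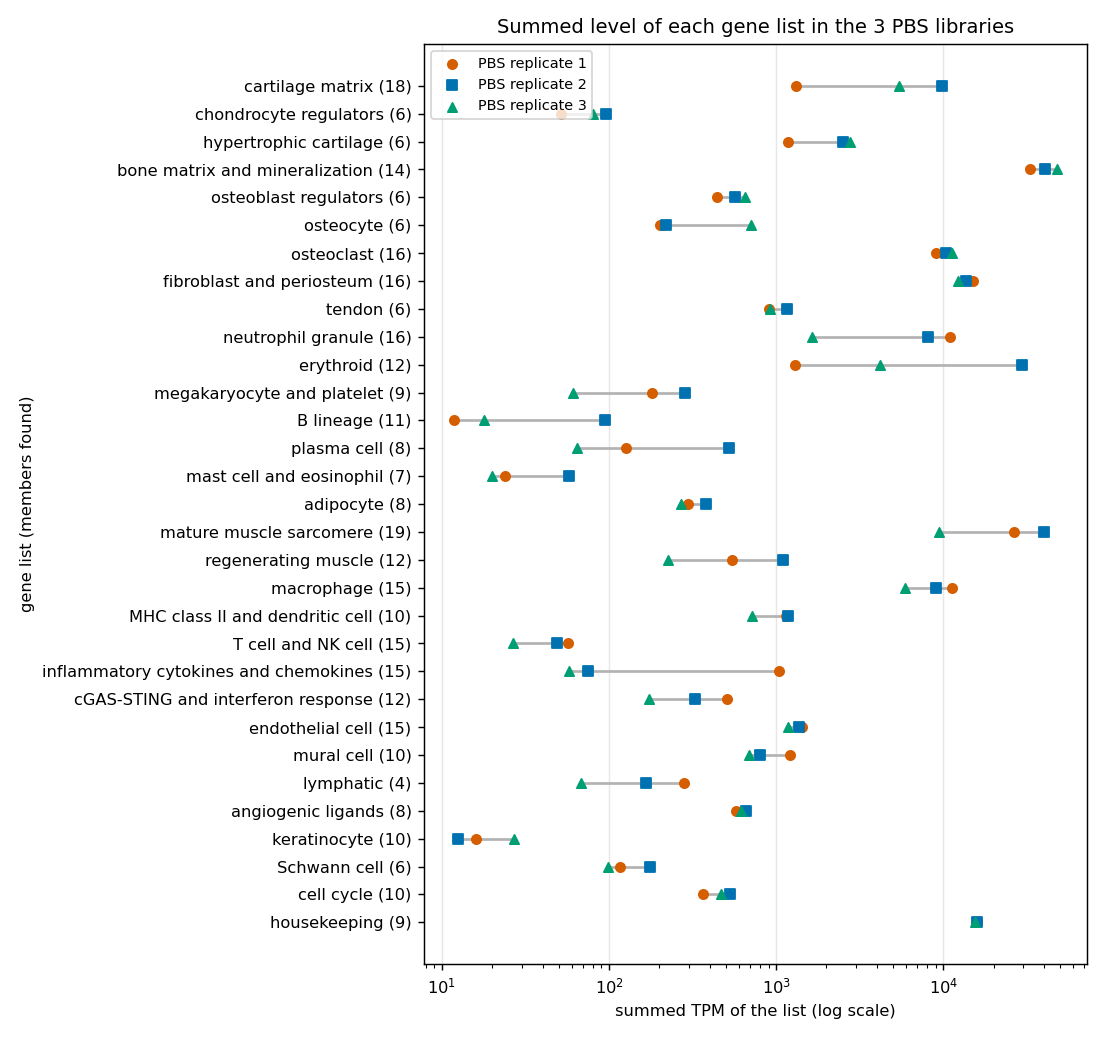
Summed TPM (x axis, log scale) of each gene list (y axis, with the number of members found) in the 3 PBS libraries, with a grey line from the lowest to the highest. Bone matrix, osteoclast, fibroblast and endothelial lists have short lines, while cartilage matrix (1322 to 9863 TPM), erythroid (1298 to 29699 TPM) and cytokine (57.2 to 1037 TPM) lists have long ones.

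Cartilage genes were expressed in every callus and differed strongly in amount. The matrix list summed to 1322, 9863 and 5459 TPM, 7.46 times as much in replicate 2 as in replicate 1. Type II collagen, Col2a1, the main fibril of cartilage (chr15:97975602-98004695, minus strand), had 336, 4317 and 1931 TPM (2194 ± 2003). Acan, the large proteoglycan aggrecan, had 104, 549 and 334 TPM, and Comp, a matrix protein that binds collagen fibrils, had 182, 1345 and 687 TPM. For all 3 genes the order was replicate 2, then 3, then 1. Without replicate 1 the mean of Col2a1 was 3124 TPM, and without replicate 2 it was 1133 TPM.

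The other chains of cartilage collagen fibrils followed. Col9a1, a chain of type IX collagen, had 30.9, 325 and 238 TPM, Col9a2 had 39.6, 585 and 284 TPM and Col9a3 had 29.2, 414 and 195 TPM. Col11a1, which is also made outside cartilage, had the narrower values of 296, 666 and 639.8 TPM, and Col11a2 had 144, 569 and 402 TPM. Among the smaller members, the matrilin Matn1 had 0.490, 25.6 and 9.00 TPM, 52.2 times apart, and Cnmd, the vessel-inhibiting protein chondromodulin, had 22.5, 203 and 124 TPM. Of the 18 members, 17 reached a mean of 1 TPM, with Epyc below it. Of these 17, 16 were 2-fold or more below both other libraries in replicate 1, against 1.42% of all genes, and Cilp, highest in replicate 2 at 46.7, 88.7 and 38.8 TPM, was the exception. The list's median log2 SD was 1.65.

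Regulators of chondrocytes varied less than the matrix. Sox9, the factor that drives Col2a1 and Acan, had 10.3, 16.0 and 13.9 TPM, Sox5 had 0.997, 1.12 and 1.22 TPM and Sox6 had 6.50, 8.87 and 3.74 TPM. The growth factor receptor Fgfr3, expressed by growing chondrocytes, was the most abundant of the list at 23.5, 61.6 and 48.2 TPM, and Trps1 had 9.92, 7.59 and 12.2 TPM. The list summed to 51.8, 96.4 and 79.9 TPM. Of its 5 members at a mean of 1 TPM or more, 2 were 2-fold apart, beside 23.5% of all genes.

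Genes of enlarged, mineralizing chondrocytes were already present on day 7. Col10a1, the collagen of hypertrophic cartilage, had 104, 1499.8 and 1282 TPM (962 ± 751), and Ihh, the signal that couples these cells to bone formation, had 3.00, 46.4 and 24.8 TPM. Both were 14.5 and 15.5 times as high in replicate 2 as in replicate 1. The parathyroid hormone receptor Pth1r had 184, 462 and 474 TPM. Mmp13, a collagenase of hypertrophic chondrocytes and osteoblasts, did not share that order at 799.8, 388 and 825 TPM. Panx3, a channel protein of the same cells, had 46.7, 81.1 and 110.1 TPM and the factor Mef2c had 47.1, 41.9 and 54.2 TPM. Relative to Col2a1 in the same library, Col10a1 stood at 30.8%, 34.7% and 66.4%, highest in replicate 3. The whole hypertrophic list had another order relative to the cartilage matrix list. It stood at 89.6%, 25.5% and 50.7%, highest in replicate 1.

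The bone matrix list had the highest mean sum, and this sum varied less than that of cartilage matrix. Most of it came from Sparc, Col1a1 and Col1a2, with means of 10632, 10602 and 8974 TPM. By the mean of log2 values over members the libraries were 1.85 times apart, and 7.60 times for cartilage matrix. The matrix and mineralization list summed to 33075, 40542 and 48143 TPM, lowest in replicate 1 and highest in replicate 3, 1.46 times apart. Beyond the collagens, Sparc and Spp1, bone sialoprotein, Ibsp, which nucleates mineral, had 1557, 1424 and 3182 TPM. The osteocalcin genes Bglap and Bglap2 had 542, 844 and 1152 TPM and 792, 1302 and 1561 TPM. The mineralization enzymes were lower in replicate 1 than in the other libraries, with tissue-nonspecific alkaline phosphatase, Alpl, at 385, 848 and 885 TPM and the phosphatase Phospho1 at 272, 574 and 587 TPM. Ifitm5, a membrane protein of osteoblasts, had 81.3, 150.9 and 234 TPM and the sphingomyelinase Smpd3 had 63.5, 199 and 214 TPM. Enpp1 and Ank, which supply the mineralization inhibitor pyrophosphate, stayed between 28.5 and 81.2 TPM. Of the 14 members, 8 were 2-fold apart between libraries, beside 23.5% of all genes. In replicate 1, 4 were below both others by that much, against 1.42% of all genes.

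Bglap, Bglap2 and Bglap3 are near-identical copies, and their separate values depend on how shared reads were assigned. The coding sequences of Bglap and Bglap2 differ at 4 of 288 bases. Bglap2 stood at 145 ± 9.45% of Bglap, whereas Bglap3 had 1.54, 3.81 and 3.35 TPM.

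Regulators of osteoblasts were present at moderate levels. Runx2, the factor that commits progenitors to bone, had 33.1, 40.97 and 61.8 TPM, and Sp7, osterix, which acts after it, had 71.9, 141 and 191 TPM. The homeobox factor Dlx5 had 23.96, 48.1 and 67.7 TPM. All 3 were lowest in replicate 1 and highest in replicate 3. Atf4, a stress-linked factor active in osteoblasts and many other cells, was level at 290.1, 299.8 and 288 TPM, and Msx2 was close to 0.

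Osteocyte genes did not share 1 order of the libraries. The list summed to 201, 220.1 and 707 TPM, 3.52 times apart, and 1.39 times apart without Dmp1. Dmp1, a matrix protein of osteocytes and late osteoblasts, had 72.5, 127 and 577 TPM, and Phex, a peptidase of phosphate control in the same cells, had 9.16, 16.1 and 59.5 TPM. These 2 of the 5 members at a mean of 1 TPM or more were 2-fold or more above the other libraries in replicate 3, against 2.28% of all genes. Without that library the mean of Dmp1 was 99.5 TPM. Mepe, also an osteocyte matrix protein, had 7.12, 30.2 and 26.2 TPM, lowest in replicate 1. Sost, the sclerostin gene of mature osteocytes, was low at 1.26, 6.43 and 8.87 TPM, and Fgf23 was at 0.480 TPM in replicate 1 and at 0 in the others. Pdpn, used as a marker of early osteocytes but also made by fibroblasts and lymphatic cells, was highest in replicate 1 at 110.4, 40.8 and 35.2 TPM.

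Osteoclast genes were the steadiest, member by member. Their list summed to 9091, 10457 and 11356 TPM, 1.25 times apart, with a median log2 SD of 0.20 against 0.30 for all genes, the smallest of the 31 lists. After Ctsk and Acp5 the gelatinase Mmp9, which neutrophils also carry, had 1406, 1959 and 1793 TPM. The fusion protein Dcstamp had 39.7, 54.4 and 55.4 TPM and Ocstamp had 16.8, 23.9 and 21.5 TPM. The receptor Oscar, which costimulates osteoclast formation, had 45.3, 49.6 and 50.7 TPM, and Nfatc1, the master factor of the lineage, had 59.9, 69.3 and 56.3 TPM. Tnfrsf11a, the receptor RANK, had 10.2, 8.54 and 8.90 TPM. The acid-secreting subunits Tcirg1 and Atp6v0d2 had 145, 135 and 132 TPM and 88.8, 54.5 and 106 TPM, and the calcitonin receptor Calcr had 1.67, 1.77 and 1.85 TPM.

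Of the 16 osteoclast members only Car2 was 2-fold apart, at 24.4, 121 and 27.6 TPM, beside 23.5% of all genes. Car2 encodes a carbonic anhydrase that red cells also contain. It was highest in replicate 2, which had the highest sum for 15 of the 31 lists, the erythroid list among them. Whether these are linked was not tested. The osteoclast sum was 25.6 ± 1.95% of the bone matrix sum within a library. The ligand of RANK, Tnfsf11, which lies outside the lists and was chosen after its values were seen, varied more, at 20.7, 3.98 and 25.2 TPM, while its decoy receptor Tnfrsf11b had 4.87, 3.28 and 4.58 TPM.

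**Figure D3:**
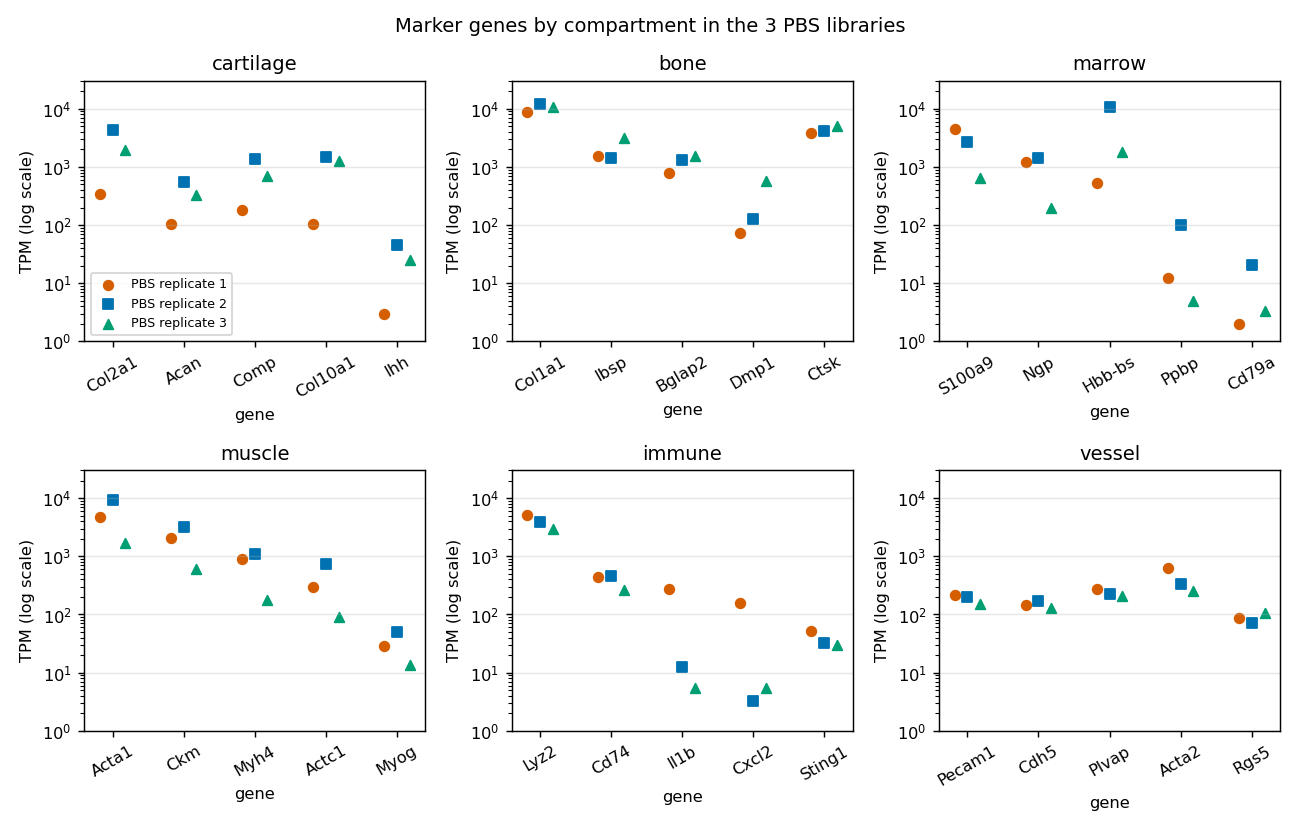
TPM (y axis, log scale) of 5 genes in each of 6 compartments in the 3 PBS libraries, 1 symbol for each library. Col1a1, Ctsk, Cdh5 and Plvap lie close together, cartilage genes are lowest in replicate 1, Hbb-bs, Ppbp and Cd79a are highest in replicate 2, muscle genes are lowest in replicate 3, and Il1b and Cxcl2 are high in replicate 1 only.

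Fibrous tissue genes summed to 14976, 13688 and 12227 TPM, highest in replicate 1 and lowest in replicate 3. This order rested on Col3a1, since without it replicate 3 was the highest. Postn, periostin, a protein of periosteum and injured connective tissue, had 1441, 466 and 711 TPM, and fibronectin, Fn1, had 914, 1722 and 1117 TPM. The type V and VI collagen genes were level, with Col5a1 at 1074, 1075 and 778 TPM, Col6a1 at 826, 969 and 673 TPM and Col6a2 at 839, 960.1 and 666 TPM. Col12a1, a fibril-associated collagen of periosteum and tendon, had 803, 949 and 962 TPM. Among small proteoglycans of this list, highest in replicate 3 were decorin, Dcn, at 471, 236 and 670.4 TPM, lumican, Lum, at 374, 258 and 1118 TPM and asporin, Aspn, at 154, 136 and 339.5 TPM, whereas Fmod and Kera of the tendon list were highest in replicates 2 and 1. Of the 16 members, 4 were 2-fold apart, beside 23.5% of all genes. The tendon list summed to 912, 1154 and 922 TPM, with Fmod at 465, 711 and 594 TPM as its leading member, followed by Thbs4 at 309, 268 and 129.9 TPM and Tnmd at 77.2, 118 and 152 TPM, while its factors Scx and Mkx had 42.7, 47.4 and 35.2 TPM and 5.01, 1.38 and 3.67 TPM.

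Marrow and blood genes separated the libraries widely. Neutrophil granule genes summed to 11039, 8147 and 1637 TPM. S100a8 and S100a9, the calgranulins of neutrophils and monocytes, had 2554, 1420.5 and 367 TPM and 4469, 2662 and 638 TPM, and S100a8 stood at 56.0 ± 2.29% of S100a9 within a library. Ngp, a granule protein of maturing neutrophils, had 1199.8, 1413 and 194 TPM, and the iron-sequestering proteins Lcn2 and Ltf had 884, 375 and 59.1 TPM and 639.6, 680.4 and 103 TPM. All 16 members were 2-fold or more below both other libraries in replicate 3, against 4.82% of all genes. Between replicates 1 and 2 the members did not share an order. The primary granule proteins Elane and Mpo had 85.0, 153 and 15.9 TPM and 104, 159 and 24.4 TPM, higher in replicate 2, while Ctsg, a protease of the same granules, had 62.7, 51.9 and 7.19 TPM. The growth factor receptor Csf3r had 86.2, 28.8 and 8.62 TPM and the chemokine receptor Cxcr2 had 21.1, 5.27 and 1.01 TPM, higher in replicate 1, while the surface proteins Cd177 and Ly6g of mature neutrophils had 55.3, 59.6 and 8.41 TPM and 29.7, 31.7 and 4.79 TPM. These 7 genes were picked from the list after their values were seen.

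Erythroid genes set replicate 2 apart. The list summed to 1298, 29699 and 4187 TPM, 22.9 times apart, and its mean was 11728 ± 15629.9 TPM with all libraries and 2743 TPM without replicate 2. The alpha globin genes Hba-a1 and Hba-a2 had 259, 7131 and 775 TPM and 397, 8704 and 1150.0 TPM, and the beta globin Hbb-bt had 107, 2821 and 429 TPM beside Hbb-bs. These are copies of each other, with coding sequences that differ at 1 base of 429 between the alpha genes and at 1 base of 444 between Hbb-bs and Hbb-bt, so the split of reads within a pair is uncertain. Genes of nucleated precursors were likewise highest in replicate 2. Alas2, the first enzyme of heme synthesis in red cells, had 5.40, 129 and 12.0 TPM, Slc4a1, the band 3 anion exchanger, had 2.11, 134 and 1.98 TPM, and the erythroid factors Klf1 and Gata1 had 1.14, 38.7 and 0.916 TPM and 0.458, 15.6 and 0.842 TPM. All 12 members found were 2-fold or more above both other libraries in replicate 2, against 2.7% of all genes. Of these, 6 were also below both others by that much in replicate 1, against 1.42% of all genes.

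The CACCC element is a short sequence in globin promoters that erythroid factors of the KLF family bind. The window of Hbb-bs, from RefSeq on GRCm38.p6, is printed because this gene carried the largest part of the erythroid sum. It spans 250 bases before to 50 after the annotated start (chr7:103827879-103828178, minus strand), with CCACACCC in capitals, 93 bases before the start.
Hbb-bs: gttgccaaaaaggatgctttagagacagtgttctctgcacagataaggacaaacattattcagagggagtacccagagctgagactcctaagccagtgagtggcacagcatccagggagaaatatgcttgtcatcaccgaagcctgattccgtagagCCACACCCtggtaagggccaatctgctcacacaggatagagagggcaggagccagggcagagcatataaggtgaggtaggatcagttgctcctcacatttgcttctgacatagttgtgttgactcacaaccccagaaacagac
The motif CCACACCC, searched on both strands, was in 1 of the 9 erythroid members with a window, and in 4.09% of all 27025 genes with one.

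The sums of the platelet, B lineage and plasma cell lists were also highest in replicate 2. The platelet chemokine Pf4, which macrophages can also make, had 158, 119 and 50.7 TPM, while Ppbp, a further platelet chemokine, had 12.5, 102 and 4.99 TPM, the integrin Itga2b had 3.61, 11.6 and 1.11 TPM and the platelet glycoprotein Gp9 had 0.494, 17.3 and 0.682 TPM. Apart from Pf4, all 8 members of the megakaryocyte list were 2-fold or more above both others in replicate 2, against 2.7% of all genes. The B lineage list summed to 11.9, 94.8 and 17.7 TPM. Cd79a and Cd79b, parts of the B cell receptor, had 2.02, 20.5 and 3.30 TPM and 5.96, 21.6 and 5.23 TPM. Vpreb3 and Igll1, which mark B cell precursors in marrow, had 0.871, 14.8 and 2.24 TPM and 0.876, 13.9 and 2.30 TPM. All 7 members at a mean of 1 TPM or more were above both others in replicate 2 by 2-fold or more. The share over all genes was 2.7%. A further 4 members, Ms4a1, Pax5, Rag1 and Rag2, were under a mean of 1 TPM.

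The plasma cell list summed to 127, 522 and 64.6 TPM. Its immunoglobulin genes included Igkc at 59.6, 202 and 21.8 TPM, Ighm at 25.6, 155 and 30.8 TPM and Igha at 28.02, 94.1 and 5.21 TPM, and Jchain, which joins IgM and IgA, had 4.38, 22.3 and 1.72 TPM. All 8 members were above both others in replicate 2 by 2-fold or more, against 2.7% of all genes. Mast cell and eosinophil genes were low, at 23.7, 57.7 and 19.8 TPM in sum, with the mast cell proteases Mcpt4, Cma1 and Tpsb2 at 4.91, 11.0 and 3.97 TPM, 4.26, 11.3 and 3.35 TPM and 3.21, 10.3 and 4.01 TPM. The eosinophil granule gene Prg2 had 2.34, 13.1 and 2.27 TPM. Fabp4, a fatty acid carrier of adipocytes, endothelium and macrophages, held most of the adipocyte sum at 277, 299 and 249.2 TPM, while the adipocyte hormone Adipoq had 3.12, 13.1 and 4.80 TPM, adipsin, Cfd, had 7.86, 44.3 and 5.92 TPM, the adipogenic factor Pparg had 4.11, 7.36 and 7.36 TPM, the lipid droplet protein Plin1 had 0.634, 2.61 and 0.292 TPM and Lep was near 0.

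Among the tissue lists, mature skeletal muscle had the highest mean sum after bone matrix. In replicate 3 it lay below the fibroblast and osteoclast lists, at 9487 against 12227 and 11356 TPM. The mature sarcomere list summed to 26330.3, 39942 and 9487 TPM, or 2.53% of TPM on average, and 4.21 times as much in replicate 2 as in replicate 3. The creatine kinase Ckm had 2101, 3244 and 604 TPM and the fast light chain Myl1 had 2508, 3613 and 1159.8 TPM. The parvalbumin Pvalb, a calcium buffer of fast fibers, had 2339, 2427 and 728 TPM, and fast troponin T, Tnnt3, had 2431, 2722 and 667 TPM. Among the heavy chains, Myh4 of the fastest fibers had 912, 1089 and 175 TPM, Myh1 had 186, 471 and 73.8 TPM, Myh2 had 41.02, 178 and 30.9 TPM and Myh7 of slow fibers had 9.42, 34.9 and 12.2 TPM. Of the 19 members, 16 were 2-fold or more below both other libraries in replicate 3, against 4.82% of all genes. The 3 others were Myh2, Myh7 and the oxygen store Mb (602, 1967 and 510.0 TPM), for which replicates 1 and 3 lay less than 2-fold apart. Replicate 2 was the highest for these as for the rest of the list.

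Genes of growing or regenerating fibers had the same order of libraries, at 543, 1105 and 227 TPM in sum. The cardiac actin Actc1, which young skeletal fibers also make, had 293, 739.9 and 91.7 TPM, and the embryonic light chain Myl4 had 143, 211 and 95.7 TPM. The embryonic heavy chain Myh3 had 7.00, 12.0 and 4.79 TPM, the perinatal Myh8 had 19.2, 17.1 and 5.62 TPM and the differentiation factor Myog had 29.1, 49.9 and 13.3 TPM. Mymk, the myoblast fusion protein, had 10.8, 14.5 and 3.55 TPM, whereas the satellite cell genes Pax7 and Myf5 stayed under 1 TPM in every library. Within a library the regenerating sum was 2.41 ± 0.354% of the mature sum. Of 10 members at a mean of 1 TPM or more, 8 were 2-fold or more below both other libraries in replicate 3. The share over all genes was 4.82%.

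**Figure D4:**
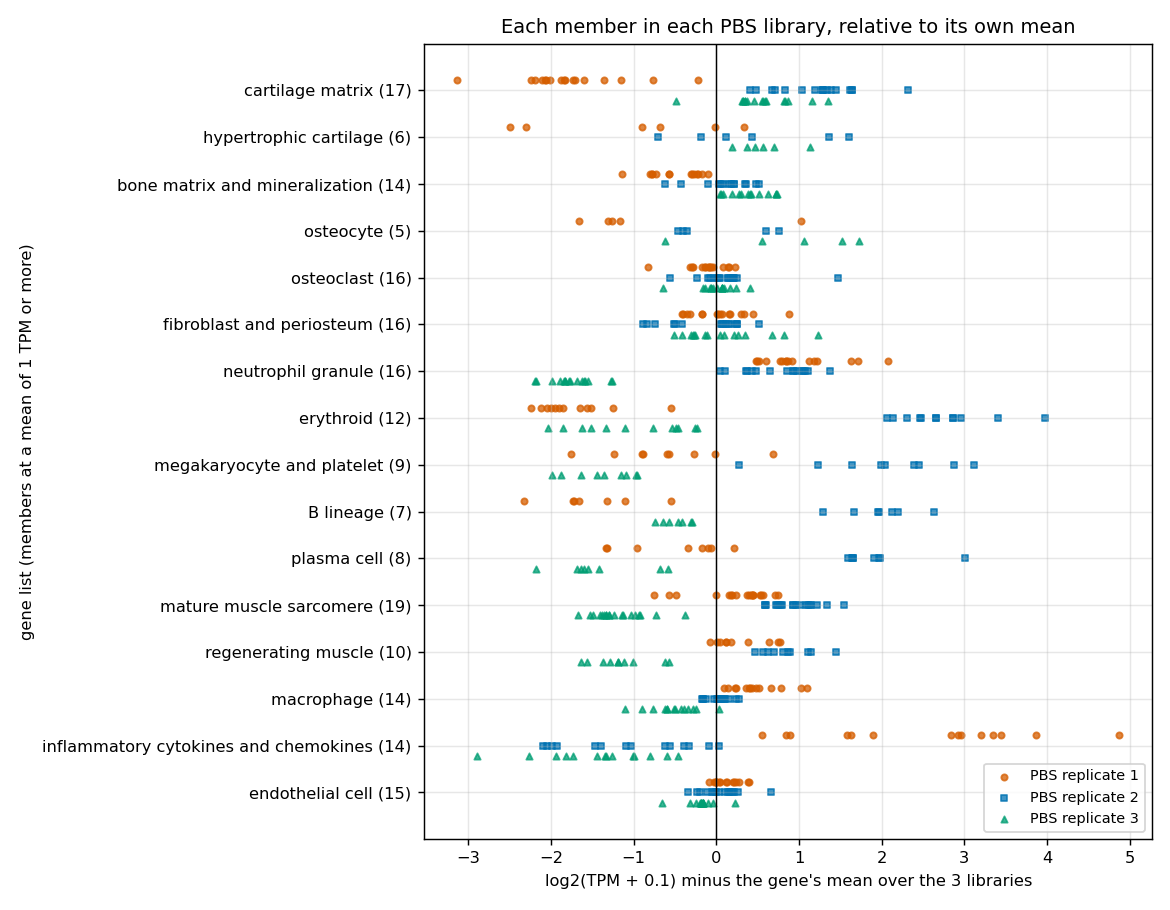
Members of 16 gene lists (y axis, with the number at a mean of 1 TPM or more) as log2(TPM + 0.1) in each PBS library minus the gene's mean over the 3 libraries (x axis), 1 symbol for each member and library. Neutrophil members in replicate 3, erythroid members in replicate 2 and nearly all cytokine members in replicate 1 form groups of their own, while most endothelial and osteoclast members stay near 0.

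Macrophage genes were abundant, summing to 11326, 9005 and 5918 TPM, highest in replicate 1 and lowest in replicate 3. After Lyz2 the lipid carrier Apoe had 3506, 3029 and 1479 TPM, and the complement genes C1qa and C1qb, made mainly by macrophages, had 540.1, 402 and 249.5 TPM and 475, 393 and 234 TPM. The lysosomal marker Cd68, shared with osteoclasts, had 496, 421 and 354 TPM, Adgre1, the F4/80 antigen, had 76.4, 39.9 and 28.9 TPM, and the receptor of CSF1, Csf1r, had 243, 198 and 140.2 TPM. Of 14 members at a mean of 1 TPM or more, 7 were 2-fold apart, beside 23.5% of all genes. The scavenger receptor Cd163 of resident macrophages stayed under 1 TPM.

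Antigen presentation genes were level between replicates 1 and 2 and lower in replicate 3, at 1141, 1171 and 721 TPM in sum. Cd74, the invariant chain, had 432, 462 and 267 TPM, and the class II genes H2-Aa, H2-Ab1 and H2-Eb1 had 271, 267 and 196 TPM, 226, 217 and 124 TPM and 162, 156 and 95.2 TPM. Lymphocyte genes were sparse. The T cell receptor subunits Cd3e, Cd3d and Cd3g had 1.27, 0.920 and 0.685 TPM, 1.48, 0.935 and 0.619 TPM and 2.34, 0.986 and 1.45 TPM. The constant chains Trac and Trbc2 had 7.80, 4.48 and 4.60 TPM and 7.61, 4.76 and 2.83 TPM, Cd4 had 8.79, 6.98 and 4.03 TPM, and Nkg7, a granule protein of natural killer and T cells, had 12.1, 17.8 and 4.72 TPM. The whole list summed to 0.499 ± 0.0447% of the macrophage list within a library.

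Inflammatory cytokine and chemokine genes set replicate 1 apart. The list summed to 1037, 74.5 and 57.2 TPM, 18.1 times apart, and its mean was 389.7 TPM with all libraries and 65.9 TPM without replicate 1. Il1b, interleukin 1 beta, had 271, 12.4 and 5.46 TPM, Il1a had 8.94, 0.468 and 0.203 TPM and Il6 had 21.6, 0.0870 and 0 TPM. The monocyte-attracting Ccl3 and Ccl4 had 203, 7.90 and 6.53 TPM and 105, 5.47 and 5.31 TPM. The neutrophil-attracting Cxcl2 and Cxcl1 had 155, 3.23 and 5.53 TPM and 75.4, 1.15 and 1.36 TPM. Each of these genes was far higher in replicate 1 than in either other library, and Il1b also differed more than 2-fold between replicates 2 and 3. Of 14 members at a mean of 1 TPM or more, 12 were 2-fold or more above both other libraries in replicate 1, against 3.13% of all genes. The others were Il10 at 2.16, 1.48 and 0.917 TPM and Ccl5 at 20.9, 10.6 and 6.396 TPM, and Il17a was at 0 in replicates 2 and 3. The same library held the lowest cartilage sum and the highest neutrophil and macrophage sums. Whether these differences share a source was not tested.

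Outside the lists, the largest ratio between libraries, among genes at a mean of 10 TPM or more with a count in each, was that of Saa3, an acute phase protein made by macrophages and stromal cells (chr7:46711998-46715700, minus strand). It had 3146, 9.48 and 6.67 TPM, 471 times as much in replicate 1 as in replicate 3, on 16040, 63 and 37 counts. Cxcl5, a neutrophil chemokine, had 139, 1.12 and 3.24 TPM, and Arg1, an arginase of wound macrophages, had 65.9, 1.42 and 1.56 TPM. Il1r2, the decoy receptor of interleukin 1, had 34.2, 3.12 and 0.701 TPM, and Cstdc4, a cystatin domain gene, had 77.3, 5.68 and 1.21 TPM. With a single library on the high side, none of these ratios has a replicate.

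NF-κB is the factor through which interleukin 1 and similar signals switch on many chemokine genes. The windows of Cxcl1, Cxcl2 and Il1b are printed because these genes were high in replicate 1 only. Capitals mark the NF-κB consensus in the chemokine genes, searched on both strands, and TATAAA, searched on the gene's strand, in Il1b. The windows lie at chr5:90890995-90891294 (plus strand), chr5:90903649-90903948 (plus strand) and chr2:129371090-129371389 (minus strand).
Cxcl1: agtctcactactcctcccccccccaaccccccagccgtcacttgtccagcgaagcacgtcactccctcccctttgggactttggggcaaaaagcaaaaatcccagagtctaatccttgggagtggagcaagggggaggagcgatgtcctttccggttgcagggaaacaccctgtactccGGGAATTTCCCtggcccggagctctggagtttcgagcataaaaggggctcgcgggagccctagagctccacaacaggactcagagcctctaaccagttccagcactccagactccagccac
Cxcl2: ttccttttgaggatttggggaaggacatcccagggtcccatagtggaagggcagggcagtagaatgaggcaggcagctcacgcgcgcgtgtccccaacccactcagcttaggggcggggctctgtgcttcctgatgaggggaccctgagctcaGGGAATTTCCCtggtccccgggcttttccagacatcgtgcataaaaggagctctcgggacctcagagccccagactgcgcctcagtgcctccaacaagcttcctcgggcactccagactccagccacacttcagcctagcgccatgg
Il1b: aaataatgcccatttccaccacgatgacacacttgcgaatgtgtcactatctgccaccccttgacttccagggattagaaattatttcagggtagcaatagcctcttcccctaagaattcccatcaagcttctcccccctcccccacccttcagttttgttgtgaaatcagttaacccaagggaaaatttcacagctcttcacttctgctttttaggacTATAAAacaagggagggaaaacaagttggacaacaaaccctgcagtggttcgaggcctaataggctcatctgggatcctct
The capitals in Cxcl1 and Cxcl2 hold 2 overlapping matches each, the first beginning 71 and 97 bases before the start. Of the 15 list members, 10 had a window. The NF-κB consensus was in 4 of them, Cxcl1, Cxcl2, Cxcl3 and Il6, and in 5.14% of all genes with a window. Among genes at a mean of 1 TPM or more the share was 6.50%. The windows of Il1b, Ccl3 and Tnf held no match, nor did that of Saa3, outside the lists. Whether the motif bears on the values of replicate 1 was not tested. TATAAA was in 5 of them, Cxcl3, Il17a, Il1a, Il1b and Tnf, and in 9.77% of all genes. In all 5 it began 40 to 20 bases before the start, as it did in 2.41% of all genes. Among the 100 most abundant genes of the callus 67 had a window, of which 12 held TATAAA (17.9%), against 5.58% of the 10363 genes at a mean of 1 TPM or more with a window.

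The cGAS-STING pathway, which senses DNA in the cytosol and drives interferon genes, was expressed at low to moderate levels. Sting1 had 51.6, 31.7 and 30.4 TPM (37.9 ± 11.9) and Cgas, the sensor, had 2.41, 1.31 and 1.13 TPM on 86, 63 and 45 counts. The kinase Tbk1 had 14.6, 9.87 and 9.31 TPM and the factor Irf3 had 40.7, 53.2 and 38.9 TPM. Ifnb1, interferon beta, had no count in any library, which allows up to 3 counts, or 0.177, 0.129 and 0.164 CPM (counts scaled to the total of the library). Interferon-stimulated genes were highest in replicate 1 and lowest in replicate 3, with Irf7 at 100.05, 69.7 and 22.1 TPM, Isg15 at 82.4, 58.0 and 27.2 TPM, Oasl2 at 73.1, 48.5 and 16.3 TPM and Ifit1 at 8.90, 1.42 and 0.942 TPM. The NF-κB subunits Nfkb1 and Rela had 50.9, 46.6 and 35.0 TPM and 65.2, 71.0 and 41.4 TPM, and Fos, a subunit of AP-1 that osteoclasts need, had 62.6, 24.2 and 22.2 TPM, highest in replicate 1.

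Endothelial genes were among the least variable. Their list summed to 1421, 1369 and 1173 TPM, 1.21 times apart, with a median log2 SD of 0.23. Plvap, a protein of fenestrated endothelium, had 277, 225 and 205 TPM, and the junction proteins Pecam1 and Cdh5 had 217, 202 and 150.8 TPM and 143, 168 and 131 TPM. The receptor Kdr, through which VEGF acts, had 37.8, 40.7 and 32.4 TPM, Eng had 127, 162 and 119.8 TPM and Emcn, found on vessels of bone, had 95.0, 69.2 and 102 TPM. Of the 15 members only Vwf, which platelets also carry, was 2-fold apart, at 21.8, 34.7 and 13.8 TPM, beside 23.5% of all genes.

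Mural cell genes summed to 1210.2, 801 and 684 TPM, with a median log2 SD of 0.44, and their members did not share an order. Smooth muscle actin, Acta2, also a marker of activated fibroblasts, had 625, 328 and 251 TPM and Tagln had 279.9, 155 and 115 TPM. The pericyte genes Pdgfrb and Rgs5 were closer together at 93.0, 99.1 and 97.4 TPM and 86.3, 71.9 and 105 TPM, and Cspg4 and Notch3, of pericytes and smooth muscle, were lowest in replicate 1 at 18.7, 49.6 and 41.1 TPM and 19.1, 32.8 and 23.7 TPM. Myh11 of mature smooth muscle was low at 13.4, 11.8 and 7.00 TPM. Lymphatic genes, 4.10 times apart in sum, had few transcripts apart from Ccl21a, at 258, 146 and 55.5 TPM, while Flt4 had 11.8, 14.3 and 11.0 TPM, Prox1 had 1.45, 0.818 and 0.417 TPM and Lyve1 had 8.96, 4.10 and 1.35 TPM. Ccl21a has near-identical copies. Ccl21b and Gm10591 shared the same values of 56.8, 24.1 and 0 TPM, and Ccl21d had 0.00100, 0 and 30.5 TPM, so the assignment of reads among them is uncertain. Vessel growth factors summed to 576, 657 and 616 TPM, of which Cxcl12, a chemokine of stromal cells, held most at 441, 488 and 480.2 TPM. Vegfa had 43.5, 35.1 and 25.1 TPM, Vegfb had 30.6, 51.5 and 25.2 TPM, Vegfc had 7.03, 4.46 and 6.25 TPM and Apln had 18.2, 42.4 and 32.6 TPM.

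The labels were held against defining markers. The bone matrix list had the highest mean sum of all lists, although its range overlapped that of mature muscle. Most of that sum came from Sparc, Col1a1 and Col1a2, with means of 10632, 10602 and 8974 TPM. Bulk RNA does not show which cells made these transcripts, so this rank alone does not mark bone. The keratinocyte genes Krt5, Krt14 and Krt1 stayed under 0.1 TPM in every library, while Krt10, Sfn and Trp63, given below, were higher. With no cell line beside them, these markers do not decide between bone and cell lines. The Y-linked genes Ddx3y, Eif2s3y, Kdm5d and Uty had counts in each library, as the label male requires. They did not share an order of libraries. Ddx3y had 14.9, 8.70 and 42.9 TPM and Kdm5d had 3.06, 2.57 and 10.8 TPM, both highest in replicate 3. Eif2s3y had 18.3, 10.2 and 11.2 TPM and Uty had 4.68, 2.26 and 4.40 TPM, both highest in replicate 1.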

How the data were processed

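RNA of day 7 callus was poly(A)-selected, made into strand-specific libraries and sequenced from both ends. The authors deposited, for each library, expected counts per gene (estimated counts that need not be whole, not normalized) and TPM values scaled for gene length and library total. Their processing notes name the build mm10, and the aligner, counter and annotation are not given in the sources used here. Between 8.57% and 9.03% of the genes had an expected count that was not whole.

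Libraries were grouped by their labels. TPM were used as deposited, with a pseudocount of 0.1 on the log2 scale and a minimum mean of 1 TPM for shares. Expected counts were rounded for the biological coefficient of variation (edgeR 4.0.16 in R 4.3.3, filterByExpr, TMM, intercept only), which was tested on simulated data. Nothing was compared between treatments, and no test was run. Members and lists were chosen with earlier results of these data known. Of 336 list members written, 335 were found.

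Genes named were the 30 of highest mean TPM, in each list the 4 of highest mean and the first 3 as written, the genes with the largest and smallest ratios between libraries, genes the study names and Y-linked genes. Some genes under these rules are not reported here. Other list members, Tnfsf11 and Tnfrsf11b were named after their values were seen, as were the NF-κB and CCACACCC motifs. Positions of genes were taken from GENCODE (GRCm38), and promoter windows of 300 bases from RefSeq (GRCm38.p6). Strand use in counting is not stated, so overlapping genes and near-identical copies are uncertain.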

Additional observations from a re-analysis of the deposited data

How the results depend on the processing

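With 3 libraries and no test, these values describe the samples at hand. No paired analysis was possible because a single group was described and no result comes from a test. The 223 genes that together held as much TPM as all others became 511 by CPM, which ignores gene length, and 345 without mitochondrially encoded and hemoglobin genes. The share of genes 2-fold apart lay between 10.5% and 14.4% with 1 library left out, where the range spans 2 libraries instead of 3. With 1 library left out the ratio of the highest to the lowest library ran from 1.81 to 7.46 for cartilage matrix, from 3.22 to 22.9 for erythroid genes, from 1.52 to 4.21 for mature muscle and from 1.26 to 1.91 for macrophages. By summed CPM the mean was 12084 for cartilage matrix, 79559 for bone matrix, 34424 for fibroblasts and 1908 for endothelium. Without the leading member it was 29954 TPM for bone matrix, 8695 for fibroblasts, 4759 for macrophages and 1086 for endothelium. Without mitochondrially encoded and hemoglobin genes it was 15794 TPM for fibroblasts and 1530 for endothelium. TMM scaling moved none of the 31 sums by more than its SD, and it changed the highest library of 1 list, housekeeping. Dropping the leading member changed the highest library of 5 lists (osteoclast, fibroblast, tendon, keratinocyte and housekeeping). Summed CPM changed it for 4 (chondrocyte regulators, fibroblast, antigen presentation and keratinocyte). The mean of log2 values over members changed it for 6 (osteoclast, fibroblast, tendon, antigen presentation, vessel growth factors and housekeeping). Leaving out mitochondrially encoded and hemoglobin genes changed it for 1, antigen presentation. A gene at 1 TPM rested on a median of 25 to 33 counts in a library, which limits the precision of genes near or under that level.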

Other observations

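Of 1593 genes annotated as transcription factors in the deposited table, Nme2 and Ybx1, which bind nucleic acids in most cells, had 673, 763 and 973 TPM and 611, 445 and 578 TPM. Ltf, the neutrophil granule protein lactoferrin, is listed there too. Id3, an inhibitor of helix-loop-helix factors, had 342, 514 and 551 TPM, Tsc22d1 had 366, 339.5 and 446 TPM, and Creb3l1, a factor for collagen secretion in osteoblasts, had 160.0, 169.6 and 193 TPM. Xbp1, a factor of secretory cells, had 221, 275 and 213 TPM. By pathway, genes of oxidative phosphorylation held 15.4 ± 4.16% of TPM, at 17.5%, 10.6% and 18.1%. This share includes mitochondrially encoded genes, which together held 14.8%, 7.48% and 15.3% of TPM. The ribosome held 13.4 ± 1.86%, focal adhesion 5.55 ± 0.759% and lysosome 2.67 ± 0.116%.

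Dividing cells and nerve were also represented. Cell cycle genes summed to 366, 526 and 471 TPM, with Pcna at 83.0, 90.5 and 92.6 TPM, Cdk1 at 63.0, 87.2 and 87.7 TPM, Birc5 at 52.5, 78.2 and 59.6 TPM, Mki67 at 15.1, 21.9 and 10.9 TPM, Top2a at 23.5, 21.4 and 17.7 TPM and Ccnb1 at 21.4, 33.1 and 60.5 TPM. In the Schwann cell list the myelin gene Mbp was highest in replicate 2, at 11.7, 32.1 and 8.29 TPM, while the Schwann factor Sox10 had 0.883, 1.26 and 0.332 TPM and Pmp22, made by many cells, had 86.2, 94.0 and 66.5 TPM. Keratinocyte genes summed to 16.0, 12.4 and 27.2 TPM, nearly all of it Krt10 at 2.79, 3.23 and 20.8 TPM, Sfn at 12.0, 6.36 and 4.84 TPM and Trp63 at 1.19, 2.51 and 1.17 TPM. Housekeeping genes summed to 15976, 15852 and 15508 TPM, although Gapdh had 3627, 4156 and 2082 TPM and Actb had 3156, 2566 and 2085 TPM.

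Of genes at a mean of 100 TPM or more, Bmp1, the protease that trims procollagen, was the steadiest at 308, 309.6 and 308 TPM. It was followed by Hsbp1, Rab31, Ndufs4, Atp6v1b2, Ewsr1, Rhoa, Serinc3, Atp6v0d1 and Anxa5, whose highest library was at most 1.04 times the lowest. Atp6v1b2 and Atp6v0d1 encode subunits of the proton pump of lysosomes and osteoclasts.

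Further genes with large ratios were found outside the lists. In replicate 2 the red cell genes Car1 (0.554, 33.3 and 1.43 TPM), Cldn13 (1.23, 30.9 and 0.375 TPM) and Ctse (1.69, 47.8 and 1.04 TPM) were highest. Mia, a gene of chondrocytes, was lowest in replicate 1 at 2.19, 40.3 and 37.0 TPM. In replicate 3 Tmem255a (2.03, 1.04 and 32.0 TPM) and the zinc finger genes Zfp268 (3.65, 1.40 and 27.8 TPM) and Zfp942 (4.30, 3.62 and 58.0 TPM) were highest.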
